A study of Mus musculus with 140 samples.

Results

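The 10 genes described here encode parts of the contractile apparatus and the receptors of mural cells, the smooth muscle cells and pericytes that wrap blood vessels. They were picked by symbol from the 34255 Ensembl genes of a count table, and each symbol matched 1 row. RNA came from kidneys of male wild-type C57BL6/OlaHsd mice and was sequenced from the 3′ end with Lexogen QuantSeq, which reads near the polyadenylated end of a transcript. Each of 28 mice gave 5 libraries, 140 in all. These were arterioles, glomeruli, post-capillary venules and peritubular capillaries, taken by laser microdissection, and whole kidney, not microdissected. The mice formed 7 groups of 4, which were CLP at 4, 24 and 72 h after cecal ligation and puncture (an operation that causes polymicrobial sepsis), sham surgery at 4, 24 and 72 h, and healthy controls at 0 h. The ages of the mice are not given in the labels.

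Smooth muscle contracts when a kinase phosphorylates the regulatory light chain of myosin, which then pulls on filaments of smooth muscle actin. Calponin, transgelin and smoothelin bind those actin filaments, and desmin forms the intermediate filaments that tie them to the cell's attachment sites. In the kidney, contraction of arterioles sets the blood flow into and out of the glomerulus, where mesangial cells, the mural cells of the tuft, also carry actin, desmin and PDGF receptors. Many smooth muscle genes are switched on by SRF and its partner myocardin through a short DNA element, the CArG box. NOTCH3 and PDGFRB are receptors through which endothelium maintains and recruits mural cells, and RGS5 shortens signalling by G-protein-coupled receptors.

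The CArG box is CC, then 6 bases of A or T, then GG, a pattern that reads the same on both strands. Promoters of RefSeq transcripts on build GRCm38.p6, from 250 bases before to 50 after the start, could be shown for 7 of the 10 genes. In these windows the exact box or a box with up to 1 G or C among its 6 inner bases was searched for; the looser form was added after the sequences had been seen. It occurred in 2 of the 7, Acta2 and Myl9, and in 9.98% of all 32851 windows, and the exact form in 1.63% of windows. The promoters of Acta2 (chr19:34255324-34255623, minus strand) and Myl9 (chr2:156775214-156775513, plus strand) are shown because they hold these boxes, printed in capitals 5′ to 3′.
Acta2: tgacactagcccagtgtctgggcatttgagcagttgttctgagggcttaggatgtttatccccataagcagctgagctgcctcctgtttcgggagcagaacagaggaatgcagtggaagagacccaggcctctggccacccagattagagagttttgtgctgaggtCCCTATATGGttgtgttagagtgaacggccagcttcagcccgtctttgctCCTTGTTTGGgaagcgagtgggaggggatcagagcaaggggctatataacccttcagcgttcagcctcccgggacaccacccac
Myl9: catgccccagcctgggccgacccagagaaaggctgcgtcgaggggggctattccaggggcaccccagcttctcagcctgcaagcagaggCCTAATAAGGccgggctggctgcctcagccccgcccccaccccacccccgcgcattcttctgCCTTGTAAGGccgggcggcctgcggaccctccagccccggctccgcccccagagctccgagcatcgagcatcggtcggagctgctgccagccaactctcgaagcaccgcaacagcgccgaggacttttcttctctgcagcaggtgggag
The boxes of Acta2 begin 84 and 34 bases before the start, and those of Myl9 161 and 99 bases before it. The box of Myl9 at 161 bases is exact, and each of the other 3 has 1 G or C among its inner bases. The match is a description of these windows and not a measured binding site.

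Library totals ran from 4242450 to 18328741 counts. The limit that a count of 0 allows (3 counts) lay between 0.164 and 0.707 CPM (counts scaled to the library total), for counting error only. Levels are given below as CPM of the TMM-scaled total, set within the 28 libraries of a compartment. For tests between compartments (edgeR, quasi-likelihood F test) TMM scaled their libraries together. Fewer genes were detected in microdissected libraries of the 24 and 72 h mice than in those of 0 and 4 h, with medians of 8081 and 12611.5 in arterioles, 11717 and 13800.5 in glomeruli, 6982 and 12632.5 in capillaries, and 10788.5 and 12876.5 in venules. For whole kidney the medians were 18311 and 19396.5. The fitted biological coefficient of variation was 1.92 in arterioles, 1.40 in glomeruli, 1.94 in capillaries, 1.58 in venules and 0.241 in whole kidney. As a check of the compartments in healthy mice, the summed level of 9 podocyte markers was 9947 to 12036 CPM in glomeruli and at most 1608 CPM in the other compartments. The summed level of 12 endothelial markers was 2988 to 5187 CPM in arterioles, 4196 to 4930 in glomeruli, 583 to 1771 in capillaries, 1177 to 1584 in venules and 647 to 748 in whole kidney. The summed level of 13 proximal tubule markers was 72116 to 127874 CPM in capillaries, against 46515 to 47146 in whole kidney. All 12 endothelial markers were detected in the capillary and in the whole kidney group, and the endothelial sums of these 2 compartments overlapped. The lowest proximal tubule sum of the capillary libraries lay above the highest sum of each other compartment.

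The 10 genes together took a median of 3.15% of all counts in arterioles (range 1.96 to 5.53 over 28 libraries). The median share was 0.174% in glomeruli, 0.106% in venules, 0.0331% in capillaries and 0.0354% in whole kidney. Each gene had counts in each arteriole and each whole kidney library. A gene was at 0 in 13 of 280 gene-by-library values in glomeruli, 11 of 280 in venules and 73 of 280 in capillaries. In all compartments these zeros fell in libraries of the 24 and 72 h mice, and 0 of 120 values at 0 and 4 h was 0 in any compartment.

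The first comparison was between the compartments of healthy kidney, where the question was which vessels carry the contractile genes. In arterioles 7 of the 10 genes were higher than in glomeruli, 8 of 10 higher than in peritubular capillaries and 8 of 10 higher than in post-capillary venules, in tests with the mouse as a block. Acta2, Myh11, Myl9, Cnn1, Tagln, Smtn and Rgs5 passed against all 3, Notch3 against capillaries and venules, and Des and Pdgfrb against none in the edgeR test. The background was 244 of 12179 genes (2.00%) called between arterioles and glomeruli in either direction, 9.23% between arterioles and capillaries and 4.20% between arterioles and venules. The median log2 fold change of the 10 genes was 4.07, 6.31 and 4.27 in these comparisons, against −0.38, −0.19 and −0.26 over all genes. The size factors of DESeq2 put the medians of all genes higher by 0.70, 0.27 and 0.42. Relative to the median of all genes, the called members then stood 3.69 to 9.77 higher than in glomeruli, against 3.52 to 9.61 with TMM. In such bulk samples more mural cells and more RNA per cell cannot be told apart.

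**Figure D1:**
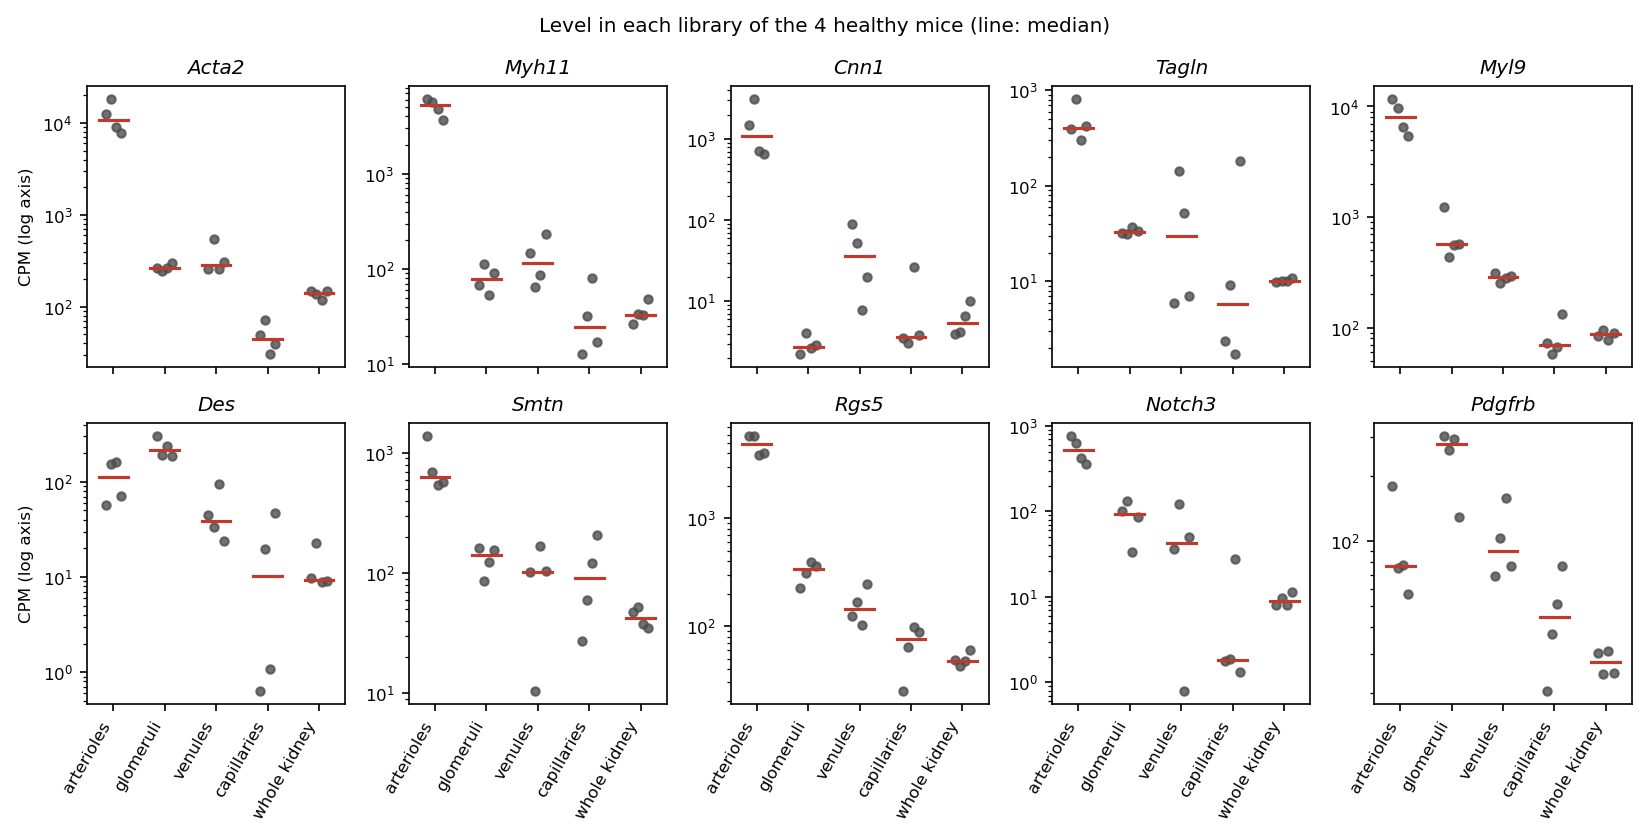
Level of each gene, in CPM on a log axis, in the 4 libraries of healthy mice (points) of each compartment, with the median as a line. Des and Pdgfrb have their highest median in glomeruli, and the other genes have theirs in arterioles.

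Acta2, the actin of smooth muscle (ENSMUSG00000035783, GRCm38 chromosome 19, 34241090 to 34255590), had 12419, 18370, 9132 and 7767 CPM in arterioles. It had 268, 243, 263 and 304 CPM in glomeruli, 259, 543, 256 and 306 in venules, 49.9, 72.3, 30.4 and 39.8 in capillaries and 150, 137, 118 and 147 in whole kidney. No arteriole value came near those of another compartment. The log2 fold change of arterioles was 5.77 ± 0.33 (SE) over glomeruli (adjusted p = 5.19e-22), 7.98 ± 0.36 over capillaries (2.19e-27) and 5.24 ± 0.32 over venules (1.8e-20). Between glomeruli and venules Acta2 overlapped and did not pass (−0.53 ± 0.27, adjusted p = 0.435), and both were higher than capillaries, by 2.21 ± 0.28 (2.55e-08) and 2.73 ± 0.28 (2.04e-10). Capillaries were lower than whole kidney by 1.38 ± 0.25 on the log2 scale (−1.38, adjusted p = 0.00194), a call lost without healthy replicate 3 or 4, with DESeq2 and with its size factors.

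Myh11, the smooth muscle myosin heavy chain (ENSMUSG00000018830, chromosome 16, 14194535 to 14291372), had 6115, 5662, 4820 and 3634 CPM in arterioles. The range was 52.9 to 111.5 CPM in glomeruli, 65.0 to 233 in venules, 12.7 to 80.8 in capillaries and 26.5 to 48.1 in whole kidney. Arterioles were higher by 6.41 ± 0.57 over glomeruli (adjusted p = 1.56e-09). Myl9, the regulatory light chain (ENSMUSG00000067818, chromosome 2, 156775420 to 156781658), had 5418 to 11740 CPM in arterioles, 433 to 1243 in glomeruli, 253 to 314 in venules, 57.4 to 134 in capillaries and 76.9 to 96.2 in whole kidney. It was higher in arterioles than in glomeruli by 4.06 ± 0.34 (4.86e-14). In glomeruli it was higher than in capillaries by 2.61 ± 0.32 (1.64e-08) and than in whole kidney by 2.76 ± 0.31 (2.06e-09).

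Of the actin-binding proteins, Cnn1 (calponin 1, which restrains the myosin ATPase; ENSMUSG00000001349, chromosome 9, 22099216 to 22109630) differed most between compartments. It had 1476, 3139, 707 and 650 CPM in arterioles, against 2.23, 4.03, 2.68 and 2.89 CPM in glomeruli, a log2 fold change of 9.23 ± 0.93 (adjusted p = 3.07e-08). In venules it had 89.2, 51.9, 7.87 and 19.8 CPM, above all 4 glomerular values, and glomeruli were lower than venules by 4.02 ± 0.76 (−4.02, adjusted p = 0.00195). That call, 1 of 10 members against a background of 1.55%, was lost without healthy replicate 4 (0.102). Tagln, transgelin (ENSMUSG00000032085, chromosome 9, 45929619 to 45936058), had 305 to 817 CPM in arterioles and 31.7 to 37.5 in glomeruli. It passed with 4.08 ± 1.05 (0.0281), and the call was lost without replicate 1 or 2 (adjusted p up to 0.103). Against capillaries (4.6 ± 1.29, 0.0172) its call held in 1 of the 4 fits without a mouse, and against venules (3.56 ± 1.06, 0.0459) in 3 of 4. The venule call was also lost with the size factors of DESeq2 and with no replicate block. In capillaries Tagln had 2.39, 9.20, 1.72 and 183 CPM and in venules 5.99, 144, 52.5 and 7.07 CPM, so that 1 or 2 libraries held most of its counts there. Smtn, smoothelin of the contractile state (ENSMUSG00000020439, chromosome 11, 3517523 to 3540612), had 538 to 1390 CPM in arterioles and 86.0 to 162 in glomeruli (3.14 ± 0.64, 0.001).

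Des, desmin (ENSMUSG00000026208, chromosome 1, 75360329 to 75368579), stood apart from the other filament genes. It had 57.6, 154, 162 and 71.2 CPM in healthy arterioles, against 305, 192, 239 and 187 CPM in glomeruli. All 4 arteriole values were below the glomerular ones, yet the difference did not pass (−0.78 ± 1.04, adjusted p = 0.799). In venules Des had 44.7, 33.7, 94.8 and 23.9 CPM, in capillaries 0.630, 19.6, 1.08 and 47.5, and in whole kidney 9.71, 22.9, 8.97 and 9.11. It passed in arterioles against whole kidney (3.36 ± 1.04, 0.0301) and in glomeruli against whole kidney (4.16 ± 1.08, 0.0162). The arteriole call held in 1 of the 4 fits without a healthy mouse and the glomerular call in 2 of 4.

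Rgs5 (ENSMUSG00000026678, chromosome 1, 169655501 to 169695813), a GTPase activator for G proteins and a common pericyte marker, followed the filament genes. It had 5839, 5762, 3884 and 4015 CPM in arterioles, 226 to 396 in glomeruli, 102 to 244 in venules, 24.8 to 98.7 in capillaries and 42.5 to 59.5 in whole kidney. Arterioles were higher than glomeruli by 4.41 ± 0.40 (adjusted p = 6.24e-13), and glomeruli higher than capillaries by 1.88 ± 0.36 (0.000203). This last call was lost with DESeq2 and with its size factors.

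The receptors are Notch3 and Pdgfrb. Notch3 (ENSMUSG00000038146, chromosome 17, 32120820 to 32166852), the NOTCH receptor of vascular smooth muscle, had 766, 624, 422 and 357 CPM in arterioles and 102, 131, 33.9 and 85.3 CPM in glomeruli. The groups did not overlap, but the log2 fold change of 3.01 ± 0.96 did not pass (adjusted p = 0.1; 0.00291 with DESeq2). Against capillaries it passed with 6.33 ± 1.21 (0.000346), and against venules with 3.51 ± 1.00 (0.0354), a call that held in 1 of the 4 fits without a mouse. Pdgfrb (ENSMUSG00000024620, chromosome 18, 61045150 to 61085061), the receptor for PDGF-BB on pericytes, mesangial cells and fibroblasts, had 180, 75.3, 77.8 and 57.2 CPM in arterioles and 305, 261, 297 and 128 CPM in glomeruli. It had 69.3 to 158 CPM in venules and 20.3 to 76.7 in capillaries. The glomerular values did not overlap the capillary ones, but no pair of microdissected compartments passed the test for Pdgfrb (adjusted p 0.234 to 0.981 in the 6 tests).

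Between the other compartments few of the genes passed. Glomeruli were higher than capillaries for 3 of 10 (Acta2, Myl9, Rgs5; background 4.89%). Venules were higher than capillaries for 2 of 10, Acta2 at 2.73 ± 0.28 and Myl9 at 1.69 ± 0.31, where the background was 0.583%. The call of Myl9 was lost with DESeq2 and with its size factors. Against whole kidney, 9 of 10 were higher in arterioles (background 13.2%), with Pdgfrb the exception (2.04 ± 0.80, adjusted p = 0.0701), which DESeq2 did call (3.38, 5.42e-05). DESeq2 also called Des in arterioles against capillaries (3.58, 0.00567), Des (3.29, 0.0194) and Cnn1 (−2.60, 0.0409) in glomeruli against capillaries, and Cnn1 (3.23, 0.0306) and Pdgfrb (2.48, 0.0371) in venules against whole kidney, which the edgeR test did not. In glomeruli 5 of 10 were higher than in whole kidney (Myl9, Des, Rgs5, Notch3 and Pdgfrb; background 3.65%). In venules 4 of 10 were higher (Acta2, Myh11, Myl9 and Rgs5; background 0.261%). In capillaries 1 of 10 passed, with Acta2 lower (background 0.174%). Of the fits without a healthy mouse, 1 of 4 kept the glomerular calls of Notch3 and Pdgfrb and the venule call of Myh11, and 3 of 4 the venule calls of Acta2 and Rgs5. With the size factors of DESeq2 the glomerular calls of Notch3 and Pdgfrb were lost, with no filter that of Pdgfrb, and with DESeq2 the venule call of Acta2.

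In every one of the 28 mice, by both scalings tried, 8 of the 10 genes had their highest microdissected level in arterioles. The exceptions were Des, highest in glomeruli in 17 mice and in arterioles in 11, and Pdgfrb, highest in glomeruli in 16, in arterioles in 10 and in venules in 2. The median log2 ratio of arterioles to the mean of the mouse's 3 other microdissected compartments (CPM + 1) was 5.94 for Acta2, with a range of 5.16 to 7.57. It was 6.37 for Myh11, 7.42 for Cnn1, 4.73 for Myl9, 5.09 for Rgs5, 4.56 for Tagln, 3.24 for Smtn and 3.00 for Notch3. The ratio of Cnn1 varied most among these, from 1.86 to 11.55. For Des the median was 1.15, with a range of −2.95 to 3.57, and for Pdgfrb 0.26, with a range of −5.74 to 2.62.

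**Figure D2:**
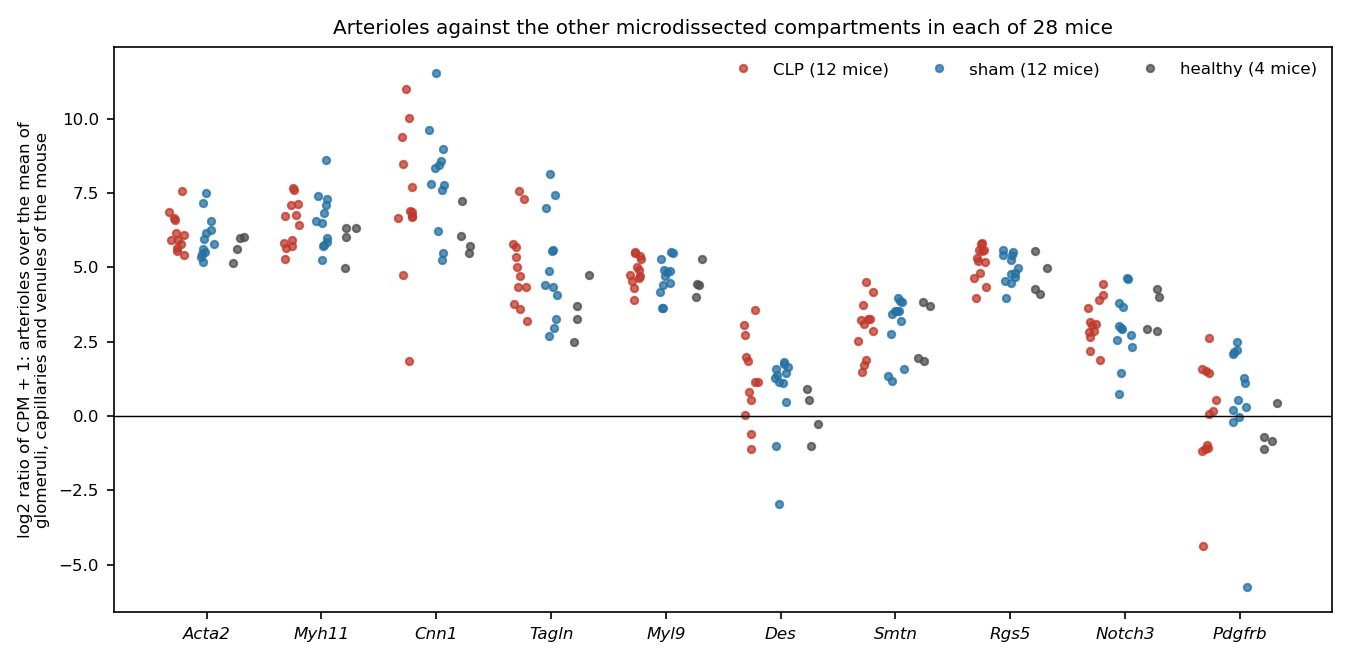
Log2 ratio of arterioles to the mean of glomeruli, capillaries and venules of the same mouse, from CPM + 1, for each gene, with 12 CLP, 12 sham and 4 healthy mice as points. The 8 genes other than Des and Pdgfrb lie above 0 in each mouse, and the points of the 3 kinds of mice overlap.

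Genes outside the 10 were followed in lists of related genes. Of 20 other smooth muscle contractile genes, 12 of 19 tested were higher in arterioles than in glomeruli, 17 of 19 higher than in capillaries and 13 of 19 higher than in venules, and none was lower. Flna, the actin cross-linker filamin A, was higher than in glomeruli by 4.07 ± 0.36 (adjusted p = 1.81e-13). Tpm2, a tropomyosin of the thin filament, was higher by 5.62 ± 0.52 (5.47e-12), Mustn1 by 5.50 ± 0.81 (2.3e-06) and Mylk, the kinase of the myosin light chain, by 2.00 ± 0.32 (1.5e-05). The list's median was 4.07 in arterioles against glomeruli, where that of all genes was −0.38. Of the 6 SRF and myocardin regulators, Myocd passed against each other compartment, with 55.6 CPM in arterioles and 0.105 in glomeruli, and the other 5 did not.

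Of 11 tested pericyte genes outside the members, 1 was higher in arterioles than in glomeruli, 4 higher than in capillaries and 2 higher than in venules. Cspg4, the proteoglycan NG2, passed in all 3 and had 581 CPM in arterioles, 121 in glomeruli, 14.2 in capillaries and 5.27 in venules. Of 9 NOTCH ligands and targets, 5 were higher in arterioles than in capillaries. They included the ligands Jag1, with 219 CPM in arterioles and 5.99 in capillaries (5.56 ± 1.43, adjusted p = 0.00553), and Jag2, with 123 CPM in arterioles and 0.345 in capillaries (0.00174). The targets Heyl (133 CPM in arterioles and 0.439 in capillaries, 0.00426) and Hey2 (73.2 and 0.259 CPM, 0.034) passed too. Of the mesangial and renin cell genes, Ren1, renin, was lower in arterioles than in glomeruli (log2 fold change −7.13 ± 1.14, adjusted p = 0.000725), with 8.87 CPM in arterioles and 1413 CPM in glomeruli. Serpine2 had 274 CPM in arterioles, 472 in glomeruli and 18.4 in capillaries, and was higher in both than in capillaries (3.96 ± 0.75, 9.6e-05, and 4.31 ± 0.75, 4.21e-05). Markers of fibroblasts moved with the arteriole group as well. Their summed level, over 10 markers, was 9338 to 15064 CPM in arterioles, 1140 to 1508 in glomeruli, 2522 to 5756 in venules and 364 to 498 in capillaries. Their part in the levels of Pdgfrb and of the pericyte genes was not tested.

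Across the microdissected libraries of all 28 mice, each gene was set against the mean of the other members on the standardised log2(CPM + 1) scale. Pearson's r was 0.95 for Rgs5, 0.94 for Acta2, 0.89 for Myl9 and 0.86 for Myh11, but 0.65 for Des and 0.43 for Pdgfrb. Of 11441 genes averaging 5 CPM or more, the 8 most like the mean of the members were Tpm2 (0.926), Fam3c (0.918), Eln (0.913), Sparcl1 (0.903), Mustn1 (0.892), Ltbp4 (0.890), Flna (0.890) and Sorbs2 (0.886). Tpm2, Mustn1 and Flna belonged to the smooth muscle list, and Eln encodes elastin of the arterial wall. These values describe the contrast of arterioles with the rest, since the libraries share compartments and mice. In the 28 whole kidney libraries the members followed each other less, from −0.52 for Pdgfrb and −0.38 for Des to 0.62 for Acta2 and 0.70 for Myh11. There the 8 most like of 10358 genes were Plce1 (0.706), Tpm2 (0.704), Flna (0.702), Myof (0.682), Tpm1 (0.665), Lmod1 (0.651), Gm48887 (0.651) and Plcb4 (0.636). Of these 8, Tpm2, Flna, Tpm1 and Lmod1 were on the smooth muscle list. Whole kidney levels also differed between the libraries of 0 and 4 h and those of 24 and 72 h. The medians were 134 and 60.5 CPM for Acta2, but 9.95 and 20.1 CPM for Des. The part of this difference in the whole kidney correlations was not tested.

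The study's central comparison was CLP against sham mice at the same time. In 14 of 15 such comparisons 0 of the 10 genes passed the edgeR test, and the exception was peritubular capillaries at 72 h. At an unadjusted p under 0.05 stood 0, 1 and 3 members in arterioles at 4, 24 and 72 h, 0, 1 and 1 in glomeruli, 0 and 3 in capillaries at 4 and 24 h, 0, 1 and 1 in venules, and 1, 1 and 0 in whole kidney. Of all genes, 418, 1890 and 2100 of 12183 stood there in arterioles and 772, 1803 and 1498 of 14586 in glomeruli. In capillaries 384 and 2267 of 11772 did, in venules 768, 1385 and 1715 of 13530, and in whole kidney 1536, 2336 and 2067 of 14936. DESeq2 called Des in glomeruli at 72 h, Des in venules at 72 h, and Acta2, Des and Tagln in capillaries at 24 h, and 0 members in the other 11 of the 14. Des was lower in CLP glomeruli (log2 fold change −1.35) and CLP venules (−5.1), and Acta2 was lower in CLP capillaries (−7.58). In capillaries Des and Tagln were higher in CLP mice, each with counts in 1 CLP library and in 0 sham libraries. Over all genes DESeq2 called 808 of 14586, 1065 of 13530 and 1511 of 11772 in these 3 comparisons, far more than edgeR did. In the edgeR test the background of called genes was as low as for the members in most of the comparisons. In arterioles it was 0.00821%, 0.0164% and 0% at 4, 24 and 72 h, in glomeruli 0.110%, 0.137% and 0.0343%, in capillaries 0% and 0.0510% at 4 and 24 h, and in venules 0%, 0.0813% and 0.0443%. In whole kidney it was 2.24%, 5.28% and 3.89%, so that there 335, 789 and 581 genes were called while 0 members were.

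**Figure D3:**
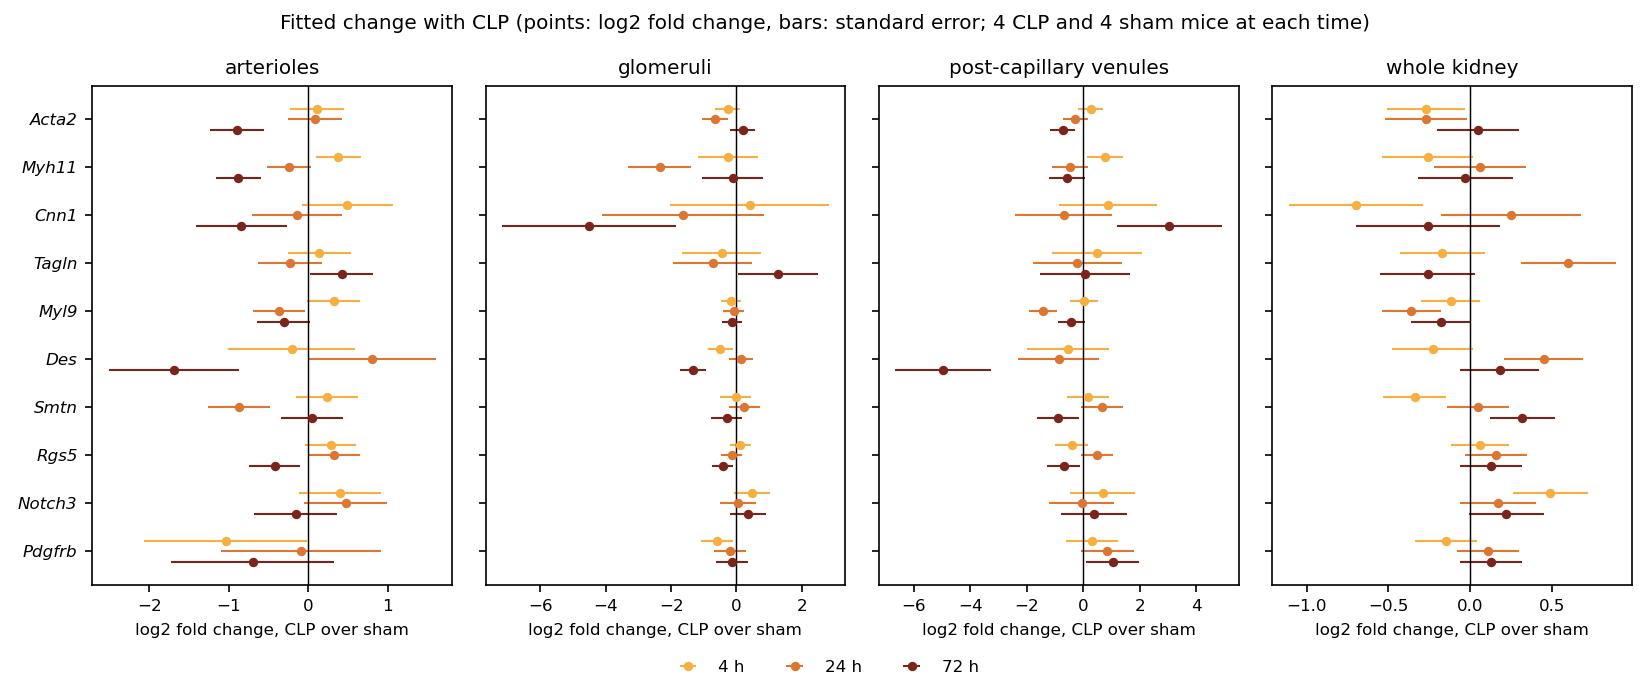
Fitted log2 fold change of CLP over sham (points) with its standard error (bars) for each gene at 4, 24 and 72 h in arterioles, glomeruli, venules and whole kidney, with 4 CLP and 4 sham mice at each time; each panel has its own range on the axis. Arteriolar Acta2, Myh11 and Des lie below 0 at 72 h, and the bars in whole kidney are the narrowest.

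In arterioles the levels of the 10 genes in CLP and sham mice overlapped at each time. At 72 h Acta2 had 4675, 10845, 5537 and 3948 CPM in CLP mice, against 17859, 6231, 8062 and 14606 CPM in sham mice. The groups overlapped, and the log2 fold change was −0.90 ± 0.34 (adjusted p = 0.158, unadjusted 0.0149). Myh11 had 4198, 5221, 2947 and 1817 CPM in CLP mice and 9488, 4584, 4243 and 7784 CPM in sham mice (−0.88 ± 0.28, adjusted p = 0.158, unadjusted 0.00416). Des had 35.1, 21.1, 128 and 86.7 CPM in CLP mice and 458, 132, 23.1 and 262 in sham mice (−1.69 ± 0.82, adjusted p = 0.249). Without any 1 of the 8 mice, none of these passed either. The sum of the 10 genes at 72 h was 24065 ± 6551 CPM in CLP and 36200 ± 14324 CPM in sham arterioles (SD, n = 4 each). At 24 h Smtn had 742, 681, 616 and 493 CPM in CLP mice and 1124, 669, 1408 and 1430 CPM in sham mice (−0.87 ± 0.39, adjusted p = 0.221). At 4 h the 10 log2 fold changes lay between −1.04 and 0.49. Other cells' markers moved in the same libraries. At 72 h the erythrocyte and platelet sum over 8 markers was 5302 to 11685 CPM in CLP and 9755 to 38248 CPM in sham arterioles, and the neutrophil sum over 10 markers was 51.6 to 615 CPM in CLP and at most 0.784 CPM in sham arterioles. Of these 10, 3 were detected in the CLP libraries (Lcn2, S100a8 and S100a9), and the others were at 0. The part of other cells in the levels above was not tested.

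In glomeruli Des was the member that separated the groups most. At 72 h it had 104, 141, 171 and 131 CPM in CLP mice, against 300.2, 491, 351 and 230 CPM in sham mice. All 4 CLP values were lower than the lowest sham value. The log2 fold change was −1.33 ± 0.39, with an unadjusted p of 0.00133 in the edgeR test and an adjusted p of 0.367, and DESeq2 called it (adjusted p = 0.0108). At 4 h Des had 73.2 to 236 CPM in CLP and 157 to 253 in sham glomeruli, and at 24 h 148 to 224 in CLP and 86.5 to 267 in sham, so that the groups overlapped at both times. Rgs5 at 72 h had 240, 238, 226 and 275 CPM in CLP and 314, 283, 313 and 403 in sham glomeruli, again without overlap (−0.42 ± 0.32, adjusted p = 0.911). By CPM of library totals without TMM the groups of Rgs5 did overlap. Myh11 at 24 h had 0.735, 7.77, 0 and 43.8 CPM in CLP mice and 84.7, 17.98, 87.8 and 76.8 CPM in sham mice (−2.35 ± 0.97, adjusted p = 0.332). Neutrophil markers summed to 3744 to 5725 CPM in CLP and 9.82 to 127 CPM in sham glomeruli at 72 h, and the podocyte sum was 9149 to 13923 CPM in CLP and 8624 to 13075 CPM in sham glomeruli. Erythrocyte and platelet markers summed to 2554 to 7712 CPM in CLP and 9045 to 19217 CPM in sham glomeruli, and 9 macrophage markers to 545 to 1519 CPM in CLP and 410 to 512 CPM in sham glomeruli. The part of these cells' RNA in the level of Des was not tested.

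In post-capillary venules Des was again apart at 72 h, at 0, 0, 0 and 17.8 CPM in CLP mice, against 74.1, 311, 124 and 48.3 CPM in sham mice. The groups did not overlap (−4.96 ± 1.7, adjusted p = 0.29 in the edgeR test, 0.00591 with DESeq2). The test passed in 1 of the 8 fits that left out a mouse, that without CLP replicate 4. In the same venules proximal tubule markers summed to 14969 to 21534 CPM in CLP and 29449 to 43100 CPM in sham mice, neutrophil markers to 128 to 356 CPM in CLP and 0 to 67.7 CPM in sham mice, and erythrocyte and platelet markers to 4267 to 12837 CPM in CLP and 10480 to 49571 CPM in sham mice. Their part in the level of Des was not tested. Sham venules at 4 h had 70.5, 0.532, 0.932 and 0.805 CPM of Des, so its spread between mice was wide. Myl9 at 24 h had 268, 20.7, 163 and 49.96 CPM in CLP and 327, 540, 268 and 216 CPM in sham venules (−1.43 ± 0.50, adjusted p = 0.351). Of 30 member-by-time values per compartment, groups did not overlap for 0 in arterioles (2.53% over all genes), 2 in glomeruli (3.90%), 2 in capillaries (4.74%), 1 in venules (2.82%) and 3 in whole kidney (8.51%).

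Peritubular capillaries at 72 h were the exception, with 5 of 10 members called. Acta2, Myh11, Des and Rgs5 fell and Cnn1 rose. The background was 22.3% of 11772 genes, 2413 of the 2625 called genes being lower, and the median log2 fold change of all genes was −1.28 with TMM and −0.83 with the size factors of DESeq2. CLP libraries of this group detected a median of 3650.5 genes (2949 to 5595), against 8001 (7137 to 9816) in sham libraries, the lowest of any group. Of 40 gene-by-library values, 30 were 0 in CLP and 12 in sham capillaries.

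**Figure D4:**
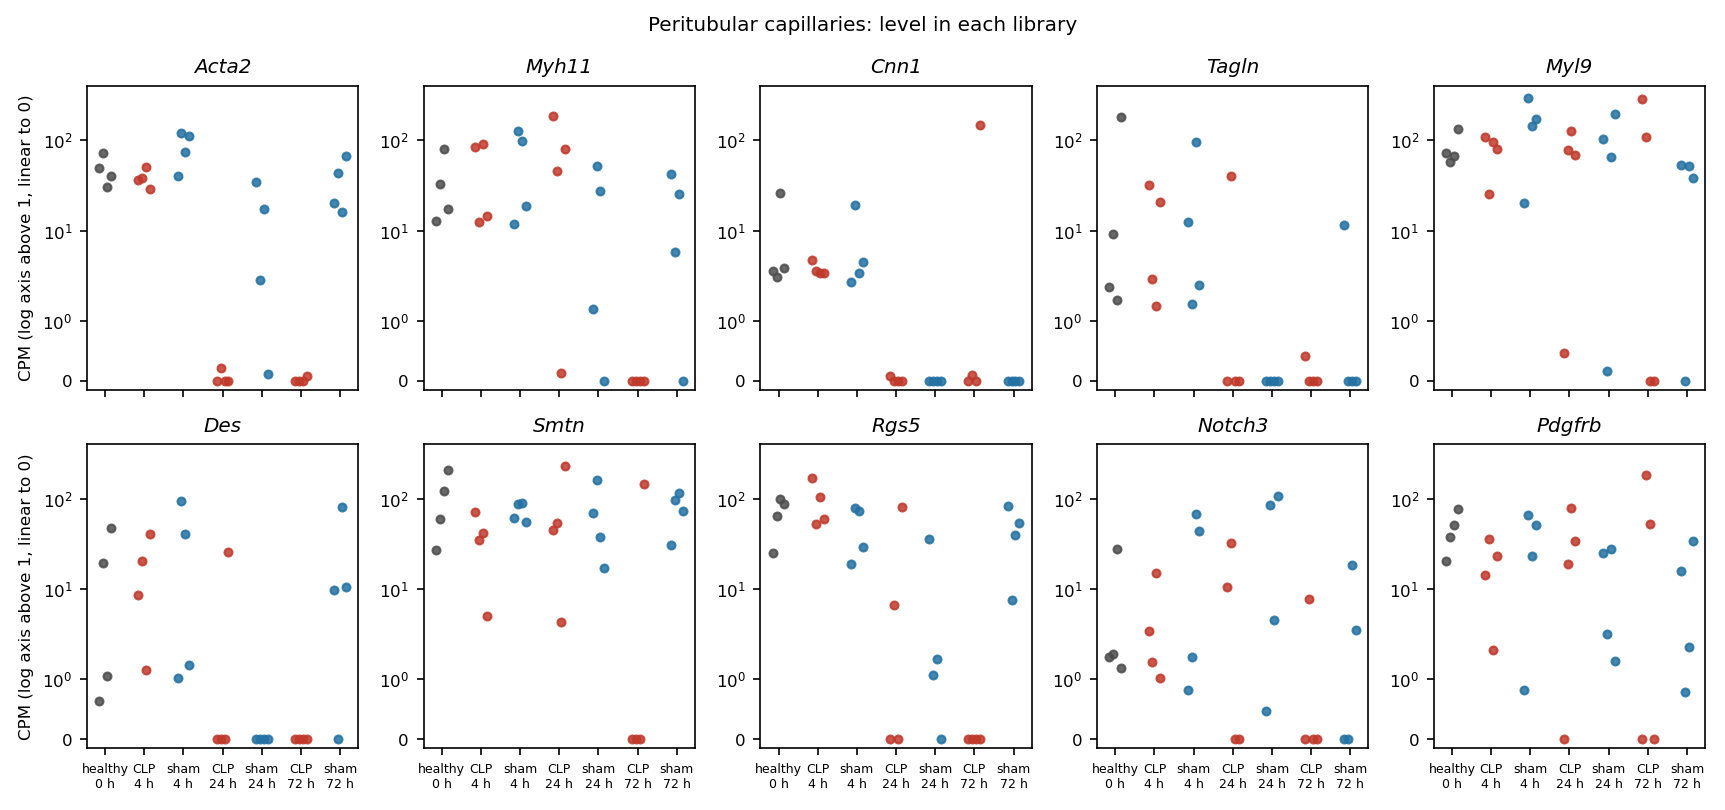
Level of each gene in each peritubular capillary library by group (4 mice each), in CPM on an axis that is logarithmic above 1 and linear down to 0. At 72 h the CLP points of Acta2, Myh11, Des and Rgs5 lie at or near 0, and points at 0 occur in no group before 24 h.

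Acta2 had 0, 0, 0 and 0.0762 CPM in CLP capillaries at 72 h, against 20.3, 43.6, 15.9 and 67.5 CPM in sham capillaries (adjusted p = 0.0341). The CLP group held 1 count, and its ratio to the sham group was 0.000773, with an exact 95% counting interval of 1.96e-05 to 0.00431. Rgs5 had 0 CPM in all 4 CLP libraries and 82.3, 7.44, 39.9 and 54.0 CPM in sham libraries, at least 146-fold lower (adjusted p = 0.0135). Myh11 had 0 CPM in all 4 CLP libraries and 42.7, 5.74, 25.3 and 0 CPM in sham libraries, at least 58.4-fold lower (0.0251). Des had 0 CPM in all 4 CLP libraries and 9.81, 0, 80.9 and 10.6 CPM in sham libraries, at least 80.3-fold lower (0.0413). Cnn1 had 0, 0.102, 0 and 148 CPM in CLP libraries and 0 CPM in the 4 sham libraries, so that 1 library held nearly all counts of the gene (0.0411). These bounds set 3 counts per library against the group without counts and cover counting error alone, because amplified reads that carry no molecular identifier are not independent. The other members did not go one way. Pdgfrb had 0, 183, 52.5 and 0 CPM in CLP and 15.7, 0.783, 2.29 and 33.8 CPM in sham capillaries, and Myl9 had 288, 108, 0 and 0 CPM in CLP and 53.4, 0, 51.8 and 38.7 CPM in sham capillaries.

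The capillary calls rested on the fit of all 28 libraries. With the 8 CLP and sham libraries of 72 h alone, the filter on low counts left 5 of the 10 members and none passed. Acta2 (adjusted p = 0.111) and Rgs5 (0.0848) lost their calls there, as with the replicate block (0.302 and 0.267), and Myh11, Des and Cnn1 were not tested in those fits. DESeq2 called the 4 lower genes and gave no adjusted p for Cnn1. With no filter on low counts 2 passed, and 1 to 4 passed in the 8 fits that left out a mouse. Rgs5 passed in 8 of those 8 fits (adjusted p up to 0.0318), Acta2 in 6, Myh11 in 5, Des in 3 and Cnn1 in 1. Markers of other cells moved in these libraries in both directions. Endothelial markers summed to 4.34 to 655 CPM in CLP and 649 to 952 CPM in sham capillaries, with Cdh5 at 0 in the CLP libraries and Vwf at 0 in the sham libraries. Proximal tubule markers summed to 25919 to 33849 CPM in CLP and 65029 to 96192 CPM in sham capillaries. Lcn2 (44.4 CPM in CLP and 0 in sham, adjusted p = 0.00914) and S100a9 (12.5 CPM in CLP and 0 in sham, 0.0454) of the neutrophil markers and Alas2 of the erythrocyte markers (12.2 CPM in CLP and 0 in sham, 0.0463) rose. Of the 10 neutrophil markers 3 were detected in the CLP libraries, and the others were at 0. The neutrophil sum was 0 to 158 CPM in CLP and at most 0.0511 CPM in sham capillaries. The sum of the 8 erythrocyte and platelet markers overlapped, at 0 to 748 CPM in CLP and 366 to 668 CPM in sham capillaries. Of these 8, 4 were detected in the CLP libraries. The sums of loop and distal tubule markers (2360 to 5121 CPM in CLP and 3456 to 4289 in sham) and of macrophage markers (20.2 to 298 CPM in CLP and 115 to 259 in sham) overlapped. The part of these markers and of the number of detected genes in the calls was not tested. At 24 h, Acta2 in capillaries had 0, 0.219, 0 and 0 CPM in CLP mice and 34.7, 2.85, 17.4 and 0.121 CPM in sham mice (adjusted p = 0.113). At that time Rgs5 had 0, 6.57, 0 and 80.5 CPM in CLP and 35.5, 1.11, 1.67 and 0 CPM in sham capillaries, and Des and Tagln had counts in 1 CLP library each and in 0 sham libraries. At 4 h Acta2 had 36.2, 38.0, 50.3 and 28.9 CPM in CLP and 40.4, 120, 74.1 and 111 CPM in sham capillaries (−1.17 ± 2.24).

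Genes of the related lists that passed in capillaries at 72 h were all lower in CLP mice. They were Mylk (73.8 CPM in CLP and 492 in sham, adjusted p = 0.0232), the SRF regulators Foxo4 and Mrtfa, the pericyte genes Cspg4 and Kcnj8, Pdgfra, Agtr1a (the type 1 angiotensin II receptor), and the mesangial genes Serpine2 and Itga8. Of these 9, the 8 other than Mylk had 0 CPM in all 4 CLP libraries. The list counts were 1 of 16 contractile genes, 2 of 5 SRF regulators, 2 of 8 pericyte genes, 1 of 5 PDGF genes, 1 of 6 vasoconstrictor receptors and 2 of 5 mesangial and renin cell genes, against the background of 22.3%.

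Whether CLP changed the members differently in the 4 microdissected compartments was tested by 3 interaction terms together, with the mouse as a block. At 4 h and at 24 h 0 of 10 passed (background 0.0210% and 0.161%), with 1 member at an unadjusted p under 0.05 at each time. Of all genes, 830 of 14272 and 686 of 13635 had such a p. DESeq2 called 0 members at 4 h and Acta2 at 24 h (adjusted p = 0.000809), where it called 114 genes in all and edgeR 22. At 24 h 2 to 4 members passed in the fits that left out a mouse. At 72 h 5 of 10 passed against a background of 1.48%, the 5 called in capillaries, Acta2 (adjusted p = 1.08e-27), Rgs5 (1.76e-18), Myh11 (1.79e-14), Cnn1 (0.00219) and Des (0.0237). In the CLP capillaries of 72 h 30 of 40 member values were 0, against 12 in sham capillaries. Those CLP libraries detected a median of 3650.5 genes, against 8001 in sham. The part of this difference in the interaction calls was not tested. Without a mouse, Acta2, Rgs5 and Myh11 passed in 8 of 8 fits, Cnn1 in 6 and Des in 1. Cnn1 was also lost with DESeq2 and with no replicate block, and Des with the size factors of DESeq2. With the capillaries left out, an alternative chosen after the data had been seen, 0 of 10 passed at each time. Whether the CLP change differed between 4, 24 and 72 h was tested within each compartment. In capillaries Des (0.0367), Rgs5 (0.0388) and Myh11 (0.049) passed against a background of 7.40%. Member values in capillaries were 0 in 73 of 160 at 24 and 72 h and in 0 of 120 at 0 and 4 h. Time after the operation and this difference between libraries cannot be told apart. Of 24 fits without a mouse, Des and Rgs5 passed in 21 and Myh11 in 5. All 3 calls were lost with no filter and with the replicate block, and those of Rgs5 and Myh11 with the size factors of DESeq2, while DESeq2 called Acta2 as well (0.00364). In arterioles, glomeruli, venules and whole kidney 0 members passed (background 0.0492%, 0.0137%, 0.0296% and 3.09%), with 1, 1, 0 and 0 members at an unadjusted p under 0.05, and DESeq2 called 0 there. Of all genes, 1902 of 12183, 1361 of 14586, 1414 of 13530 and 2057 of 14936 had such a p.

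In whole kidney, where the spread was smallest, 0 members passed with CLP. At 4 h the CLP and sham groups of 3 members did not overlap, and none of the 3 passed the test. Over all 3 times this was 3 of 30 member values in whole kidney, against 8.51% over all genes. The share at 4 h alone was not counted. Notch3 had 11.3, 12.7, 12.5 and 13.2 CPM in CLP and 10.3, 10.3, 6.56 and 8.11 CPM in sham kidneys (0.49 ± 0.23, adjusted p = 0.425). Cnn1 had 6.18, 4.83, 5.18 and 6.37 CPM in CLP and 11.6, 11.04, 7.67 and 6.60 CPM in sham kidneys (−0.70 ± 0.41, 0.629). Smtn had 30.6, 34.4, 31.3 and 33.6 CPM in CLP and 37.1, 46.2, 36.6 and 44.9 CPM in sham kidneys (−0.34 ± 0.19, 0.611). At 24 h Tagln had 3.802, 4.803, 10.8 and 6.17 CPM in CLP and 4.45, 5.78, 3.23 and 3.20 CPM in sham kidneys (0.60 ± 0.29, 0.313). At 72 h Acta2 had 66.6, 68.0, 67.2 and 73.7 CPM in CLP and 49.6, 80.9, 74.7 and 60.4 CPM in sham kidneys (0.05 ± 0.25, 0.972), and the 10 log2 fold changes lay between −0.26 and 0.32. Over the same kidneys neutrophil markers summed to 257 to 557 CPM in CLP and 5.80 to 10.1 CPM in sham mice, and proximal tubule markers to 21917 to 27121 CPM in CLP and 53517 to 62747 CPM in sham mice.

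Some genes of the related lists did pass in whole kidney. Ednrb, the type B endothelin receptor, rose at 4 h (32.1 CPM in CLP and 19.5 in sham, 0.72 ± 0.20, adjusted p = 0.0482) and at 72 h (34.5 CPM in CLP and 18.4 in sham, 0.91 ± 0.20, 0.00522). Tbxa2r, the thromboxane receptor, fell at 4 h, to 0.739 CPM in CLP against 3.02 CPM in sham kidneys (−1.96 ± 0.41, 0.00462), and in glomeruli at 4 h, to 0.297 CPM in CLP against 28.8 CPM in sham (0.0319). Kcnj8, the potassium channel subunit of pericytes, rose at 4 h to 14.6 CPM in CLP against 8.001 CPM in sham kidneys (0.87 ± 0.20, 0.00912). Akr1b7, expressed by renin cells, rose at 4 h (1.35 ± 0.36, 0.0374), Serpine2 at 24 h (0.90 ± 0.26, 0.041) and Ren1 at 72 h, to 153 CPM in CLP against 70.4 CPM in sham kidneys (1.12 ± 0.26, 0.0111). Of 20 smooth muscle contractile genes outside the members, 0 passed in whole kidney or in arterioles at any time. The list's median log2 fold change was −0.07, −0.02 and 0.14 in whole kidney at 4, 24 and 72 h and 0.21, 0.06 and −0.25 in arterioles, against 0.00, 0.02 and 0.03, and 0.01, −0.03 and −0.06, over all genes.

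**Figure D5:**
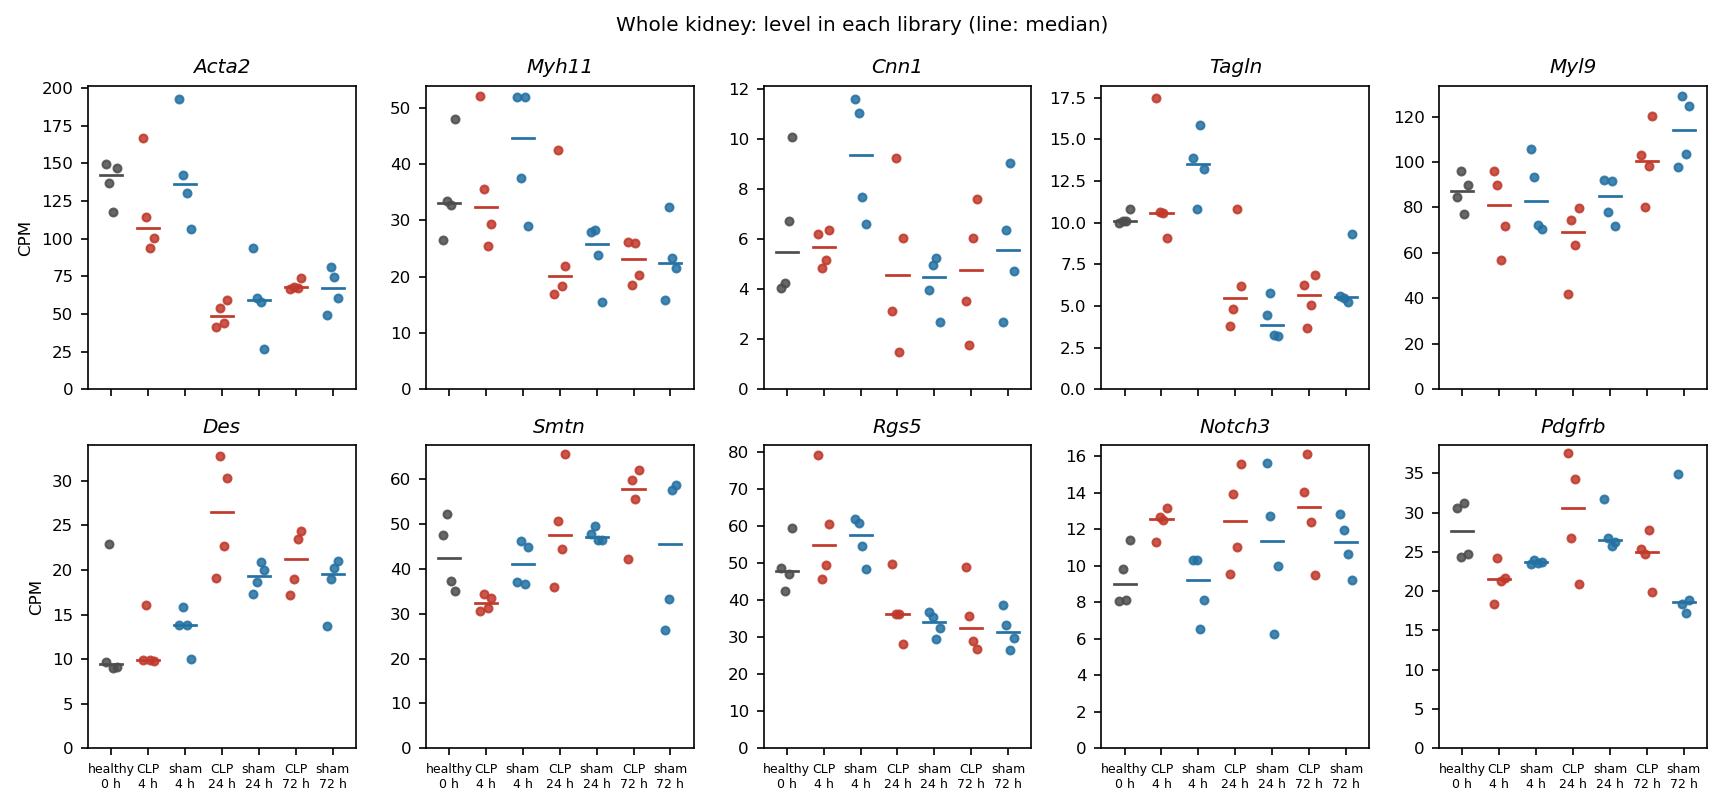
Level of each gene in CPM in each whole kidney library (points, 4 mice per group) with the group's median as a line, each panel with its own axis from 0. The Acta2 points of the CLP and sham mice of 24 and 72 h all lie below those of the 4 healthy mice, and CLP and sham overlap at both times.

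Sham surgery was compared with healthy kidney, and in whole kidney 4 calls were made, 2 at 24 h and 2 at 72 h. Acta2 and Tagln were lower at 24 h (background 6.41%), and Acta2 and Rgs5 at 72 h (8.44%). At 4 h 0 members passed (0.937%; 0 at an unadjusted p under 0.05, and 0 with DESeq2). Acta2 had 93.9, 60.5, 58.0 and 27 CPM in sham kidneys at 24 h, against 150, 137, 118 and 147 CPM in healthy kidneys (−1.20 ± 0.25, adjusted p = 0.00766). At 72 h it had 49.6, 80.9, 74.7 and 60.4 CPM in sham kidneys (−1.05 ± 0.25, 0.0138), again below all 4 healthy values, and at 4 h 193, 142, 131 and 106 CPM. The 24 h call was lost with the 8 libraries alone, and the 72 h call without sham replicate 4 (0.052). Tagln had 4.45, 5.78, 3.23 and 3.20 CPM in sham kidneys at 24 h, against 9.94, 10.1, 10.1 and 10.8 CPM in healthy kidneys (−1.30 ± 0.28, 0.00902), and it passed in 8 of 8 fits without a mouse. Rgs5 had 38.6, 33.1, 26.5 and 29.6 CPM in sham kidneys at 72 h, against 48.7, 42.5, 46.9 and 59.5 CPM in healthy kidneys (−0.63 ± 0.19, 0.0351). That call held in 2 of 8 fits without a mouse. Rgs5 at 24 h, at 29.6 to 36.8 CPM in sham kidneys, was below all healthy values but did not pass (−0.56 ± 0.18, 0.0609). It did pass with DESeq2 (0.0439), with no filter on low counts and with the 8 libraries alone. Des had 17.3 to 20.9 CPM in sham kidneys at 24 h, against 8.97 to 9.71 CPM in 3 healthy kidneys and 22.9 CPM in the other one. It did not pass (0.61 ± 0.24, 0.113) unless healthy replicate 2 was left out (0.00834).

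The median log2 fold change of all genes in these whole kidney comparisons was 0.01 at 24 and at 72 h, and that of the members −0.31 and −0.24. The 24 and 72 h whole kidney libraries detected fewer genes than the earlier ones, so time after surgery and this difference between libraries cannot be told apart. CLP kidneys, which were not tested against healthy ones, had 41.5 to 59.5 CPM of Acta2 at 24 h. Other genes that passed in sham against healthy kidney were Srf, the factor that binds the CArG box, lower at 24 h (0.0301 CPM in sham and 1.41 CPM in healthy, adjusted p = 0.0139) and at 72 h (0.0603 CPM in sham, 0.0249). Its sham means lay below the 3-count limit of a library, so no fold is given. At 72 h Actn1 (−0.52 ± 0.17, 0.0463), Cspg4 (−0.65 ± 0.20, 0.0386), Gucy1b1 (−0.97 ± 0.31, 0.0484) and the NOTCH targets Hes1 (−1.91 ± 0.52, 0.0299) and Nrarp (−2.25 ± 0.61, 0.0257) fell, and Foxo4 (0.75 ± 0.21, 0.0261) and Akr1b7 (1.20 ± 0.37, 0.0419) rose. The counts at 72 h were 1 of 20 contractile genes, 2 of 5 SRF regulators, 2 of 14 pericyte genes, 2 of 8 NOTCH genes and 1 of 7 mesangial and renin cell genes, against 8.44% of all genes. Markers of other cells moved in these kidneys too. The fibroblast sum was 512 to 725 CPM in sham mice at 24 h and 515 to 668 CPM at 72 h, against 708 to 819 CPM in healthy mice, and Col1a2 was lower at both times (−1.56 ± 0.42, adjusted p = 0.0305, and −1.58 ± 0.42, 0.0264) and Mgp at 72 h (−0.48 ± 0.15, 0.0439). The proximal tubule sum was 47755 to 56778 CPM in sham mice at 24 h and 53517 to 62747 CPM at 72 h, against 46515 to 47146 CPM in healthy mice, and Umod of the loop was higher at both times (0.68 ± 0.16, 0.0148, and 0.70 ± 0.16, 0.0116). Their part in the levels of Acta2, Tagln and Rgs5 was not tested.

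In the microdissected compartments 0 members passed in sham against healthy mice. In arterioles at 4, 24 and 72 h the background was 0%, 0.0657% and 0.0903%, in glomeruli 0.00686%, 0% and 0.00686%, in capillaries 0%, 0% and 0%, and in venules 0%, 0.0222% and 0.0739%. Members at an unadjusted p under 0.05 numbered 1, 2 and 1 in arterioles, 0, 1 and 1 in glomeruli, 0, 3 and 1 in capillaries, and 0, 0 and 2 in venules. Of all genes, 668, 1411 and 1393 of 12183 stood there in arterioles and 708, 1162 and 1417 of 14586 in glomeruli. In capillaries 347, 1380 and 1156 of 11772 did, and in venules 644, 1206 and 1813 of 13530. DESeq2 called Notch3 in arterioles at 24 h and Des and Tagln in capillaries at 24 h, and 0 members elsewhere. Each was lower in sham mice, and Des and Tagln had 0 CPM in all 4 sham capillary libraries. Over all genes DESeq2 called 1376 of 12183 in those arterioles and 759 of 11772 in those capillaries. Acta2 in glomeruli at 24 h had 84.98, 144, 220 and 109 CPM in sham mice, against 268, 243, 263 and 304 CPM in healthy mice, with no overlap (−0.95 ± 0.39, adjusted p = 0.565). At 72 h it had 124, 204, 166 and 125 CPM in sham glomeruli, again without overlap (−0.80 ± 0.39, 0.506). How many of all genes did not overlap was not counted for sham against healthy mice. Glomerular libraries of 24 and 72 h detected a median of 11717 genes, against 13800.5 at 0 and 4 h. Time after surgery and this difference between libraries cannot be told apart, here as in the other microdissected compartments. Notch3 in arterioles at 24 h had 156, 295, 316 and 119 CPM in sham and 766, 624, 422 and 357 CPM in healthy mice (−1.29 ± 0.53, 0.297; 0.000129 with DESeq2). Tagln in arterioles, by contrast, had 766, 304, 1069 and 1700 CPM in sham mice at 24 h, against 391, 817, 305 and 420 CPM in healthy mice, with overlap (0.99 ± 0.40, 0.297). With the size factors of DESeq2 the sign differed for 3, 6 and 5 of the 10 members in arterioles at 4, 24 and 72 h, where the median of all genes was −0.05, −0.48 and −0.51 with TMM and −0.25, −1.10 and −1.10 with those size factors.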

How the data were processed

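The deposited table holds whole-number counts of QuantSeq reads per Ensembl gene, not normalized by the authors. Per the submitters' processing notes, the tools were STAR 2.7, featureCounts, HTSeq 0.13, SAMtools 1.9, MultiQC 1.7 and FastQC 0.11.8, with builds GRCm38.p6 and GRCm39 named. Which build and counter made the table, the strand setting and the treatment of duplicate reads are not given in the sources used here, so reads of overlapping genes may be shared. Positions are those of GENCODE M21 (GRCm38), in which 34193 of the 34255 gene IDs were found.

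Groups came from the labels. The table gives 4 h for 20 healthy libraries that the labels put at 0 h, and the labels were used. Replicates are separate mice.

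Differences were tested in edgeR 4.0.16 (quasi-likelihood F test, R 4.3.3, TMM, low counts removed with filterByExpr), and p-values were Benjamini-Hochberg adjusted over all genes tested, with a threshold of 0.05. CLP against sham and sham against healthy were fitted on the 28 libraries of a compartment. Healthy compartments were fitted on 16 libraries, or 20 with whole kidney, and the interactions of compartment and CLP on 32, each with the mouse as a block. The code was run on simulated counts, which had less spread between mice than was fitted in the microdissected libraries. That run checked the code and not the calls made in these libraries. Alternatives were DESeq2 1.42.0, its size factors, no filter, the 8 libraries of a comparison alone, the replicate block, the microdissected libraries of all 28 mice and each mouse left out. Leaving the capillaries out of the interaction test was chosen after seeing the data.

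The members and lists were chosen with earlier results of these data known. The rule for naming genes took all 10 members in every comparison (given as counts where none is singled out) and of each list up to 4 called genes of the smallest adjusted p, with the 8 genes most like the members' mean. Totals of 4242450 to 18328741 counts per library set the limit of 3 counts, which covers counting error only.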

Additional observations from a re-analysis of the deposited data

Results flagged for a closer look

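In each group of 4 mice, a library was taken as standing apart where its gap to the nearest of the others, divided by the group's range, was above Dixon's 95% critical value. This marked 42 of the 343 groups with a range (12.2%), 19 of them in capillaries, 7 in glomeruli, 6 in arterioles, 5 in venules and 5 in whole kidney. Chance flags about 1 in 20 groups where the values are normally distributed. A group with counts in a single library is always flagged, however few they are, so this rate cannot be applied to these CPM. The causes were not tested.

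In arterioles, replicate 4 of CLP at 4 h was low in Acta2 (9148 CPM, the others 13482 to 14119) and in Cnn1 (1029, the others 2101 to 2234). Replicate 1 of CLP at 72 h was high in Myl9 (12109, the others 5110 to 5713) and replicate 3 of CLP at 4 h in Smtn (1681, the others 743.8 to 875.3). Sham replicate 2 at 4 h was low in Smtn (476.5, the others 1001 to 1026), and healthy replicate 1 was high in Pdgfrb (179.7, the others 57.23 to 77.83).

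In glomeruli, Cnn1 stood apart in replicate 1 of CLP at 24 h (4.734 CPM, the others 0 to 0.1553), in replicate 2 of CLP at 72 h (0.07621, the others 0) and in sham replicate 4 at 72 h (3.141, the others 0). In CLP mice, Tagln was high in replicate 1 at 72 h (95.41, the others 6.068 to 18.98), Smtn in replicate 2 at 24 h (406.8, the others 80.76 to 130.9) and Rgs5 in replicate 1 at 24 h (413.0, the others 179.9 to 195.5). Myh11 was low in sham replicate 2 at 24 h (17.98, the others 76.83 to 87.79).

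In capillaries, a single CLP library held the counts of a gene at 24 h for Acta2 (0.2188 CPM), Cnn1 (0.07824), Tagln (40.48) and Des (25.85), the others being at 0, and Rgs5 had 80.47 against 0 to 6.565. At 72 h the same was seen in CLP libraries for Acta2 (0.07615), Tagln (0.4204), Smtn (146.8) and Notch3 (7.743), the others being at 0, and Cnn1 had 148.3 against 0 to 0.1019. Notch3 in CLP replicate 3 at 4 h had 14.95, the others 1.039 to 3.374. In sham capillaries single libraries were high for Cnn1 (19.38, the others 2.677 to 4.521) and Tagln (95.41, the others 1.55 to 12.56) at 4 h, Rgs5 (35.51, the others 0 to 1.674) at 24 h, and Tagln (11.45, the others 0) and Des (80.93, the others 0 to 10.61) at 72 h. In healthy capillaries they were Cnn1 (26.34, the others 3.067 to 3.827) and Notch3 (27.41, the others 1.339 to 1.899) in replicate 3 and Tagln (183.1, the others 1.72 to 9.202) in replicate 4.

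In venules, Cnn1 in CLP replicate 2 at 72 h had 96.22 CPM, the others 0, and in sham replicate 3 at 72 h 10.23, the others 0 to 1.1. Des had 17.78 in CLP replicate 4 at 72 h, the others 0, and 70.53 in sham replicate 1 at 4 h, the others 0.5317 to 0.9317. Smtn was low in sham replicate 2 at 24 h (12.47, the others 81.81 to 88.26).

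In whole kidney, Des had 16.1 CPM in CLP replicate 2 at 4 h (the others 9.836 to 9.915) and 22.86 in healthy replicate 2 (the others 8.966 to 9.707). Sham mice stood apart in Tagln at 72 h (replicate 4, 9.338, the others 5.222 to 5.615) and in Pdgfrb (replicate 1) at 24 h (31.75, the others 25.74 to 26.71) and 72 h (34.9, the others 17.23 to 18.89).

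The CLP change differed between the 4 microdissected compartments, by the edgeR interaction test, for Serpine2 at 24 h (adjusted p = 4e-13). At 72 h it differed for Acta2 (adjusted p = 1.08e-27), Rgs5 (1.76e-18), Myh11 (1.79e-14), Serpine2 (0.000144), Ren1 (0.000974), Cnn1 (0.00219), Mylk (0.00336), Des (0.0237) and Csrp1 (0.0419). Between 4, 24 and 72 h the CLP change differed in capillaries for Serpine2 (adjusted p = 0.0106), Des (0.0367), Rgs5 (0.0388), Pdgfd (0.0413), Itga8 (0.0446) and Myh11 (0.049), and in whole kidney for Kcnj8 (0.00184) and Tbxa2r (0.0366). Libraries of 24 and 72 h detected fewer genes than those of 4 h, and time and this difference cannot be told apart.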

How the results depend on the processing

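No result that was tested changed direction while called. The counts of members called, out of 10, moved as follows. With DESeq2, CLP against sham called 3 in capillaries at 24 h, 1 in glomeruli at 72 h and 1 in venules at 72 h, where edgeR called 0. In those capillaries Acta2 was lower in CLP mice, and Des and Tagln were higher, with counts in 1 CLP library each. Over all genes DESeq2 called 1511, 808 and 1065 in these 3 comparisons, and edgeR 6, 5 and 6. DESeq2 also called 1 in sham against healthy arterioles and 2 in sham against healthy capillaries at 24 h (0 with edgeR), 1 in venules against capillaries (2 with edgeR), 0 in capillaries against whole kidney (1 with edgeR) and 1 in the 24 h interaction (0 with edgeR). With no filter, capillaries at 72 h after CLP held 2 (main value 5), their time test 0 (3), glomeruli against capillaries 5 (3), and the interactions 1 at 4 h and 2 at 24 h (0). With the size factors of DESeq2, the capillary time test held 1 (3), venules against capillaries 1 (2), glomeruli against whole kidney 3 (5) and capillaries against whole kidney 0 (1). The 8 libraries alone gave 0 in capillaries at 72 h (5), where 5 members were left after the filter; capillaries at 24 h kept 6 in CLP against sham and 9 in sham against healthy. With the microdissected libraries of all 28 mice, glomeruli against capillaries gave 8 (3), glomeruli against venules 3 (1) and venules against capillaries 7 (2). The counts over all genes rose as well, to 4657 (596), 1983 (189) and 1499 (71). Without the capillaries, an alternative chosen after seeing the data, the 72 h interaction called 0 (5).

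Leaving out 1 mouse at a time gave 1 to 4 called members in CLP against sham capillaries at 72 h, 0 to 3 in the capillary time test and 0 to 1 in CLP against sham venules at 72 h. In sham against healthy whole kidney it gave 2 to 3 at 24 h and 0 to 3 at 72 h. Among healthy compartments it gave 6 to 7 for arterioles against glomeruli, 7 to 9 against capillaries, 6 to 8 against venules and 8 to 9 against whole kidney, 3 to 5 for glomeruli against capillaries, 0 to 1 against venules and 2 to 4 against whole kidney, 2 to 5 for venules against capillaries and 2 to 5 against whole kidney, and 0 to 1 for capillaries against whole kidney. The interactions ranged from 2 to 4 at 24 h and from 3 to 5 at 72 h.

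Replicate numbers belong to different mice in CLP, sham and healthy groups, and in 0 of 30 comparisons were all 4 pairs correlated above 0.1. In whole kidney, however, 3 of 4 pairs of CLP and sham were above 0.1 at 24 h (r up to 0.55). At 72 h 2 of 4 were (up to 0.44), and for sham against healthy 1 of 4 at each of these times. Whether mice of the same replicate number share more than the number cannot be told from this rule. With the replicate block, 0 of the 5 members left passed in CLP against sham capillaries at 72 h and 0 in the capillary time test, and 5 in sham against healthy whole kidney at 72 h (main value 2). Over all genes the block gave 105 calls in the capillary time test (main value 871) and 2421 in that whole kidney comparison (1260).

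The counts over all genes moved by more than 1.5 times in 47 of 48 comparisons. For CLP against sham, DESeq2 called 1545 genes in arterioles at 72 h, where edgeR called 0, and 1511 in capillaries at 24 h, where edgeR called 6. In capillaries at 72 h the count ran from 13 with the 8 libraries alone to 3601 with DESeq2 (main value 2625). Arterioles against glomeruli called 2841 genes with the libraries of all 28 mice and 244 with those of healthy mice. Levels near the 3-count limit could not show a difference at this depth.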
